A study of Mus musculus with 2 samples.

Results

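The 9 genes described here, Cd79a, Cd79b, Blk, Cr2, Cd22, Ms4a1, Fcer2a, Faim3 and Pax5, encode the signalling chains of the B cell receptor and proteins by which mature B cells are recognised. They were picked by gene symbol, and all 9 had a row among the 21113 genes of the deposited tables. Each table held 1 library of poly(A)-selected RNA from C57BL/6 mammary gland collected in postnatal week 6. The ILN/ILN library came from a sample homozygous for the Mir212/132 ILN allele, in which an IRES-LacZ-Neo cassette is inserted where miR-212 and miR-132 are encoded, and the WT library came from a wild-type sample. With 1 library per genotype no difference below has a replicate check or a test. The labels do not give the number of animals behind a library, the gland that was taken or the treatment of its lymph node.

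The B cell receptor is a membrane antibody held by a heterodimer of CD79A and CD79B, whose cytoplasmic tails are phosphorylated by Src family kinases such as BLK when antigen binds. Complement receptor CR2 lowers the threshold of that signal and CD22 dampens it, while PAX5 is the transcription factor that commits a cell to the B lineage. In a mammary gland, B cells are found scattered in the stroma and, in larger numbers, in the lymph node embedded in the fat pad.

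All 9 genes were lower in the ILN/ILN library. Their fragments together numbered 2288 in the ILN/ILN library and 14938 in the WT library, which is 6.08-fold lower after scaling by the library totals (95% interval for counting error 5.82 to 6.36). The single genes were 3.47-fold to 11.8-fold lower, with a median of 6.78-fold, and for all 9 the interval lay past 2-fold. On the log2(value + 1) scale of the deposited FPKM-like values, a measure scaled for gene length and library size, 8 of the 9 genes reached a value of 1 in either library and all 8 were at least 2-fold lower, against 1.72% of the 11556 genes measured in the same way. None of the 8 was at least 2-fold higher, against 0.407%. Of these 8, 3 reached the minimum through the WT library alone, so for them a difference was built into the minimum. Without that minimum, from fragments, 9 of 9 were at least 2-fold lower, against 2.5% of 11392 genes with at least 200 fragments over both libraries, and 7 of 9 were at least 5-fold lower, against 0.404%. The members were chosen with these results known, so the counts are a description. In bulk tissue, fewer B cells and less RNA per B cell cannot be told apart.

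The sequences that bear on these genes in this model are the microRNAs of the targeted locus, a matching site in 1 member and the promoters of members that were low together. The mature miR-132-3p and miR-212-3p (RefSeq, GRCm38.p6, chr11:75173723-75173744 and chr11:75173443-75173464, plus strand) share their seed, bases 2 to 8, in capitals.
miR-132-3p: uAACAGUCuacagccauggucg
miR-212-3p: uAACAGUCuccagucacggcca
The match to that seed, GACTGTT, was searched in the longest 3′ untranslated region that GENCODE M21 annotates for each gene. It was in 1 of the 9 members, Ms4a1, and in 13.3% of 10273 measured genes. The Ms4a1 match started at base 325 of a 1990-base region (GRCm38, chr19:11251323-11251351, minus strand) and is in capitals below.
Ms4a1 site: aaaagacacatGACTGTTctgttcatctc
Ms4a1 had fewer fragments in the ILN/ILN library, and the other 8 members, which were also lower, had no match in the regions searched.

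RefSeq start-site windows, 250 bases before to 50 after a start, were at hand for 6 of the 9 members, 3 of them for Fcer2a and 8 in all, and 2 of these windows are shown because they held the same 3 short motifs of B lineage factors. Capitals mark TCNNGGGA, a partial EBF1 motif holding 1 side of its palindrome, CAGGTG, an E-box bound by E proteins, and GAGGAA, the PU box. Each was searched on both strands. In the Faim3 window capitals also mark CAGCTG, another E-box. The windows are Cd79a (GRCm38.p6, chr7:24897247-24897546, plus strand) and Faim3, now named Fcmr (GRCm38.p6, chr1:130865527-130865826, plus strand).
Cd79a: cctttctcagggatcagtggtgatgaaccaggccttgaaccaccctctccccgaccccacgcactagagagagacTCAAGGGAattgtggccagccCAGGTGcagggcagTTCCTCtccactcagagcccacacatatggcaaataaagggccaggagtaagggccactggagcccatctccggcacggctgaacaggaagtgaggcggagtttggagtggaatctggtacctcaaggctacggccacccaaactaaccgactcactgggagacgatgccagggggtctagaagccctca
Faim3: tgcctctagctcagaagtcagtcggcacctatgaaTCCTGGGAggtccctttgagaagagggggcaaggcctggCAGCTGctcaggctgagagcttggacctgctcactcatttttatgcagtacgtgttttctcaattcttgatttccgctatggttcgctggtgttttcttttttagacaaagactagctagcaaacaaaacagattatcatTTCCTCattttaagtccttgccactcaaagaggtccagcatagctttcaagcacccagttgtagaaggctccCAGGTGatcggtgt
Of 32851 windows of this length, 0.953% held all 3, against 2 of the 8 windows of members, a combination chosen after the members' windows had been read. Singly, TCNNGGGA was in 5 of the 8 windows and 18.1% of all windows, CAGGTG in 5 of 8 and 20.2%, GAGGAA in 2 of 8 and 28.3%, and CAGCTG in 2 of 8 and 16.3%. The octamer ATGCAAAT was in none of the 8 and in 1.74% of all windows, CCCNNGGG, the centre of the EBF1 palindrome, in 1 window, of Cd22, and 13.7%, and TATAAA in 1, of Fcer2a, and 13.6%. A match is a string of letters and no evidence of binding.

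**Figure D1:**
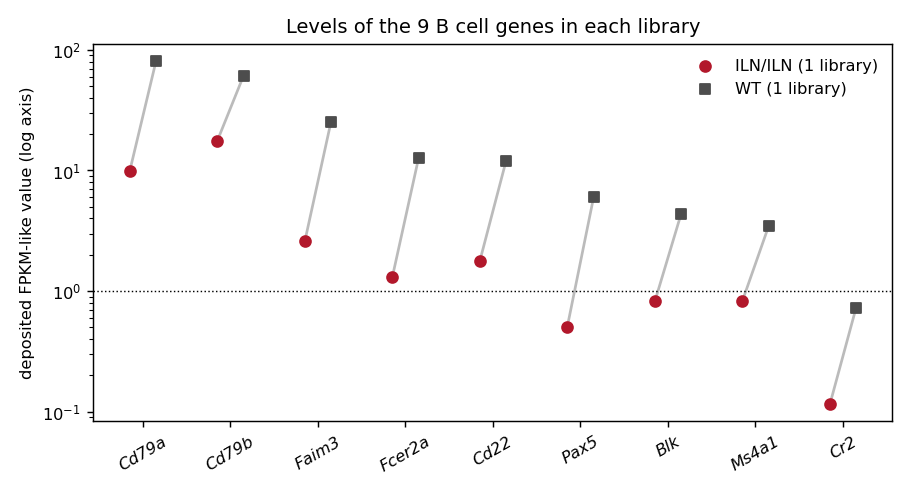
Deposited FPKM-like value (log axis) of each of the 9 genes in the ILN/ILN library (red circles, left) and the WT library (grey squares, right), 1 library each, with genes ordered by their WT level and the dotted line at a value of 1. Every gene is lower in ILN/ILN, and Cd79a and Cd79b change places, with Cd79a at 9.89 and Cd79b at 17.6 in ILN/ILN against 80.6 and 61.0 in WT.

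Within the receptor complex, the CD79 chains were the most abundant of the 9 genes per length in both libraries. Cd79a, which encodes Ig-alpha, was at 9.89 with 560 fragments in the ILN/ILN library and at 80.6 with 4905 fragments in the WT library, 8.16-fold lower (7.47 to 8.92). Cd79b, which encodes its partner Ig-beta, was at 17.6 with 920 fragments in the ILN/ILN library and at 61.0 with 3428 fragments in the WT library, 3.47-fold lower (3.23 to 3.74). Cd79b was the member that kept most of its WT level, at 28.8%, while Cd79a kept 12.3%.

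The products of these genes pair as a heterodimer, but their transcripts did not keep one ratio. Per length, Cd79a over Cd79b was 0.563 in the ILN/ILN library (0.506 to 0.626) and 1.32 in the WT library (1.27 to 1.38), so the order of the chains was opposite in the 2 libraries. The ratio of ILN/ILN to WT was 2.35 times as high for Cd79b as for Cd79a (2.10 to 2.64). Both genes have 1 isoform in the tables, their lengths of 1253 and 1158 bases are alike, and neither overlaps an annotated exon of another gene in GENCODE M21. Cd79b made up 40.2% of the fragments of the 9 genes in the ILN/ILN library and 23.0% in the WT library, and Cd79a 24.5% and 32.8%.

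The kinase and the co-receptor were of low abundance. Blk, a Src family kinase of B cells, was at 0.82 with 89 fragments in the ILN/ILN library and at 4.36 with 508 fragments in the WT library, 5.31-fold lower (4.24 to 6.73). Cr2, which in mice encodes complement receptors 1 and 2 and is also expressed by follicular dendritic cells, was at 0.115 with 32 fragments in the ILN/ILN library and at 0.729 with 217 fragments in the WT library, 6.31-fold lower (4.34 to 9.46). Cr2 is the member that stayed below a value of 1 in both libraries, and its fragments are spread over 6133 bases, the greatest length among the 9 genes. On the log2(value + 1) scale it differed by -0.63, short of 2-fold, since a pseudocount of 1 exceeds both of its values.

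The inhibitory receptor Cd22, a sialic acid binding lectin that recruits the phosphatase SHP-1 to the receptor, was at 1.77 with 295 fragments in the ILN/ILN library and at 12.0 with 2147 fragments in the WT library, 6.78-fold lower (6.00 to 7.68). It lay at the median of the 9 genes. Its exons overlap an annotated gene on the opposite strand that has no row in the tables, and no source used here says whether the authors counted by strand.

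Of the remaining surface proteins, Faim3 and Fcer2a were close to 10-fold lower and Ms4a1 less so. Faim3, the Fc receptor for IgM, was at 2.58 with 165 fragments in the ILN/ILN library and at 25.4 with 1748 fragments in the WT library, 9.86-fold lower (8.40 to 11.6). Fcer2a, the low-affinity IgE receptor CD23 of follicular B cells, was at 1.30 with 127 fragments in the ILN/ILN library and at 12.6 with 1324 fragments in the WT library, 9.71-fold lower (8.09 to 11.7). The interval of the ratio between them held 1 (Fcer2a over Faim3, 1.02; 0.791 to 1.30). Ms4a1, which encodes CD20, was at 0.826 with 74 fragments in the ILN/ILN library and at 3.45 with 332 fragments in the WT library, 4.18-fold lower (3.24 to 5.45).

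Pax5, the lineage factor, had the lowest ratio. It was at 0.507 with 26 fragments in the ILN/ILN library and at 5.98 with 329 fragments in the WT library, 11.8-fold lower (7.90 to 18.3). The 26 fragments are the fewest of any member, and its interval is accordingly wide. The authors' length for Pax5 is 1134 bases, whereas its longest annotated 3′ untranslated region alone has 6749, so most of that region did not enter the value. Its exons overlap 2 annotated genes on the opposite strand, neither with a row in the tables.

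**Figure D2:**
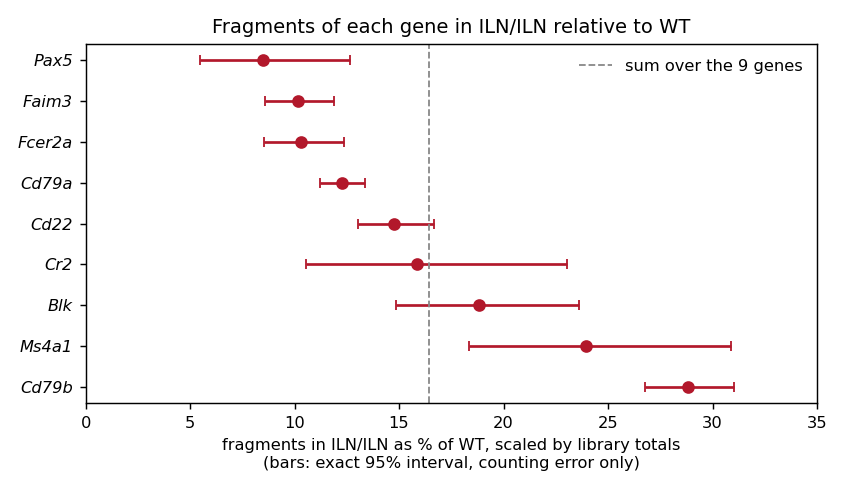
Fragments of each gene in the ILN/ILN library as a percentage of WT after scaling by library totals (points), with exact 95% intervals for counting error alone (bars), and the sum over the 9 genes (dashed line). Pax5 stands lowest at 8.49% and Cd79b highest at 28.8%, and the interval of Cd79b overlaps that of Ms4a1 alone.

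The 9 genes were not lower to one common extent. From the lowest ratio to the highest the order was Pax5, Faim3, Fcer2a, Cd79a, Cd22, Cr2, Blk, Ms4a1 and Cd79b. Of the 8 pairs of neighbours in this order, 7 did not differ beyond counting error, and the exception was Cd22 against Cd79a (ratio of ratios 1.20; 1.03 to 1.40). Over all 36 pairs, 23 had an exact conditional 95% interval that held no 1, with no adjustment for the number of pairs. Cd79b was part of 7 of those 23, and its ratio exceeded that of every member but Ms4a1 beyond counting error. Between the ends of the order, the ratio of Cd79b was 3.40 times that of Pax5 (2.26 to 5.31). These intervals leave out differences between animals and dissections, so they do not show that the order would hold in other samples.

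Relative to Cd79a, the spread of levels stayed wide in both libraries. Faim3 was at 26.1% of the Cd79a value in the ILN/ILN library and 31.5% in the WT library, Cd22 at 17.9% and 14.9%, Fcer2a at 13.2% and 15.7%, and Ms4a1 at 8.35% and 4.28%. By value, Cr2 was last of the 9 in both libraries, Faim3 came next after the CD79 chains in both, and Pax5 ranked 8 in the ILN/ILN library and 6 in the WT library.

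**Figure D3:**
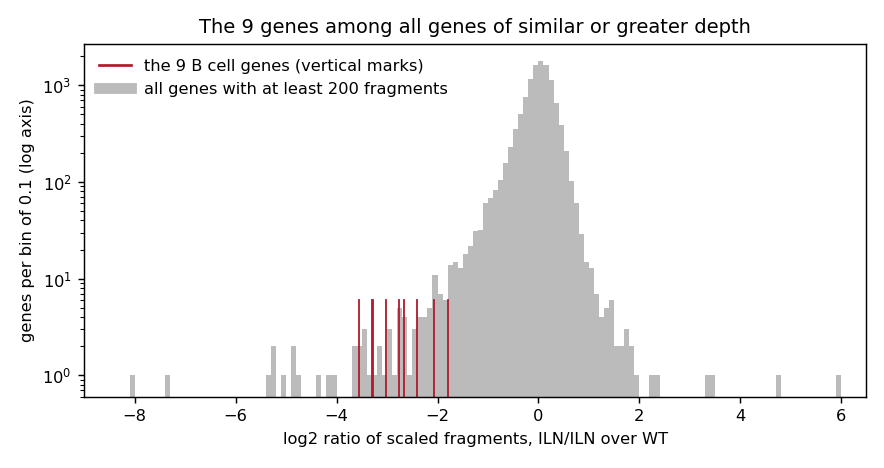
Number of genes (log axis, bins of 0.1) by log2 ratio of scaled fragments, ILN/ILN over WT, for genes with at least 200 fragments over both libraries (grey), with the 9 B cell genes as red marks. The 9 genes lie between -3.56 and -1.79 in the lower tail, while the median of all genes is 0.02, and 1 gene with 0 fragments in ILN/ILN is not drawn.

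Among the 11392 genes with at least 200 fragments over both libraries, ordered from the lowest ratio up, the 9 genes took places between 17 and 81. The median log2 ratio of fragments was -2.76 over the 9 genes and 0.02 over these 11392. On the log2(value + 1) scale it was -2.22 over the 8 measured members and 0.02 over all 11556 measured genes. The values of all 9 members came directly from fragments in both libraries, and 8 of the 9 have 1 isoform in the tables.

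Genes outside the 9 with a like ratio were sought among those of a higher WT level. Of 6582 other named genes with a WT value of at least 5, 28 (0.425%) had a fragment ratio within the range of the members. That limit is set on the library where the 9 genes are higher, and Ms4a1, Blk and Cr2 do not reach it themselves. It leaves out genes with ratios in the same range, such as Cxcr5, Tnfrsf13c and Fcrl1, so the share is no measure of how rare such ratios are. Among these 6582, the 10 nearest to the median of the members all lay within 0.44 on the log2 scale over these 2 libraries. They were Hic1, Lypd1, Lcn2, Spib, Dapl1, Gpr18, Ly6d, Pou2af1, Il33 and Nmb. Hic1 is a neighbour of the targeted locus, and Spib and Pou2af1 are B lineage transcription regulators. Spib was at 1.31 in the ILN/ILN library and 8.66 in the WT library, 6.63-fold lower (5.62 to 7.88). Pou2af1, the B cell coactivator OBF-1, was at 0.586 and 5.13, 8.76-fold lower (6.79 to 11.5).

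Among genes that share the pathway or the lineage with the 9 members, most measured ones of the surface, signalling, inhibitor and transcription regulator lists were below 0, and the signalling and regulator lists also held genes above 0. Of 14 measured further surface and antigen presentation genes of mature B cells, all 14 had a log2(value + 1) ratio below 0 and 10 were at least 2-fold lower; the list median was -1.28. Tnfrsf13c, the receptor for the survival factor BAFF, had 31 fragments in the ILN/ILN library and 265 in the WT library, 7.96-fold lower (5.47 to 12.0). Cxcr5, the chemokine receptor that leads B cells into follicles, was at 0.579 and 4.53, 7.84-fold lower (6.08 to 10.3). Ccr6, another chemokine receptor, had 15 and 121 fragments, 7.51-fold lower (4.38 to 13.8). At the other end, Cd180 was at 1.94 in the ILN/ILN library and 2.41 in the WT library, and Cd83 at 4.84 and 6.90, both also expressed by dendritic cells.

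The next list holds genes of receptor-proximal activating signalling. Of the 14 measured genes of this list given here, 12 were below 0 and none was at least 2-fold lower on the log2(value + 1) scale; the list median was -0.60. Cd81, a tetraspanin of many cell types that takes part in the CR2 co-receptor complex, was at 312 in the ILN/ILN library and 340 in the WT library. Btk was at 3.81 in the ILN/ILN library and 6.85 in the WT library, Blnk at 4.30 and 8.76, Plcg2 at 5.12 and 9.44 and Lyn at 11.0 and 15.3, and myeloid cells also express Btk, Plcg2 and Lyn. Bcl10 and Rasgrp3 were on the other side, at 16.4 and 2.11 in the ILN/ILN library and 15.1 and 1.96 in the WT library. Syk was not analysed here.

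Of the inhibitors of the receptor, all 8 were below 0 and 4 were at least 2-fold lower; the list median was -0.95. Siglecg, a lectin related to CD22, was at 0.927 in the ILN/ILN library and 3.76 in the WT library, 4.06-fold lower (3.26 to 5.09). Cd72 was at 3.41 and 11.1, 3.25-fold lower (2.67 to 3.98), and the adaptor Dok3 at 3.01 and 9.17, 3.05-fold lower (2.60 to 3.59). Ptpn6, which encodes the phosphatase SHP-1 of blood cells, was at 16.4 and 34.1, and the ubiquitin ligase gene Cblb at 4.48 and 4.74, where the interval of the fragment ratio held 1.

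Of 13 transcription regulators of the B lineage besides Pax5, 11 were below 0. On the log2(value + 1) scale 4 were at least 2-fold lower, namely Spib, Pou2af1, Ikzf3 and Ikzf1. By fragments, Bach2 was also 2.93-fold lower (2.41 to 3.58), Bcl11a 2.67-fold (1.83 to 3.97) and Pou2f2 2.09-fold (1.80 to 2.43). The deposited Ikzf1 values used the authors' derived estimate in part; by fragments, 562 and 1531, it was 2.54-fold lower (2.30 to 2.80). Ebf1, which acts with PAX5 in B cells and is also expressed in adipocytes and stroma, was at 32.7 in the ILN/ILN library and 27.7 in the WT library, 1.18-fold higher by fragments (1.12 to 1.24). Irf4 was higher too, at 13.4 and 10.6, and the cells behind its value were not determined.

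Of 7 precursor genes 1 was measured, Vpreb3, at 1.30 in the ILN/ILN library and 6.16 in the WT library, and Rag2 and Vpreb2 had 0 fragments in both libraries, which allows up to 3. Of 3 measured germinal centre genes 2 were above 0, with Bcl6 at 13.8 in the ILN/ILN library and 8.92 in the WT library and S1pr2 at 6.41 and 6.06. The 1 below 0 was Gcet2, at 3.37 and 4.19 by the authors' derived estimate in part, with 58 and 105 fragments, 1.69-fold lower (1.21 to 2.37). Of 6 measured plasma cell genes 5 were below 0 and none was at least 2-fold lower on the log2(value + 1) scale, with a list median of -0.46. By fragments, Igj was 2.29-fold lower (1.96 to 2.68). Igj was at 2.54 and 5.81, Mzb1 (listed as 2010001M09Rik) at 1.94 and 3.57, Tnfrsf17 at 3.27 and 4.13, and Xbp1 at 176 and 175. The cells behind these transcripts were not determined. Values such as those of Bcl6, S1pr2 and Xbp1 need not come from B lineage cells. Immunoglobulin constant genes were not analysed here.

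Among ligands and attractants, Cxcl13, the chemokine read by CXCR5, was at 0.773 with 38 fragments in the ILN/ILN library and at 29.5 with 1560 fragments in the WT library. Tnfsf13b, the survival factor BAFF, was at 2.19 and 4.63, 2.12-fold lower (1.75 to 2.56), whereas the related Tnfsf13 was at 3.15 and 3.62 (1.15-fold lower; 0.806 to 1.64). C3, whose fragments are bound by CR2, was at 867 and 957, and St6gal1, which makes the sialic acid ligand of CD22, at 5.22 and 7.39. None of the 5 measured genes of this list was above 0.

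**Figure D4:**
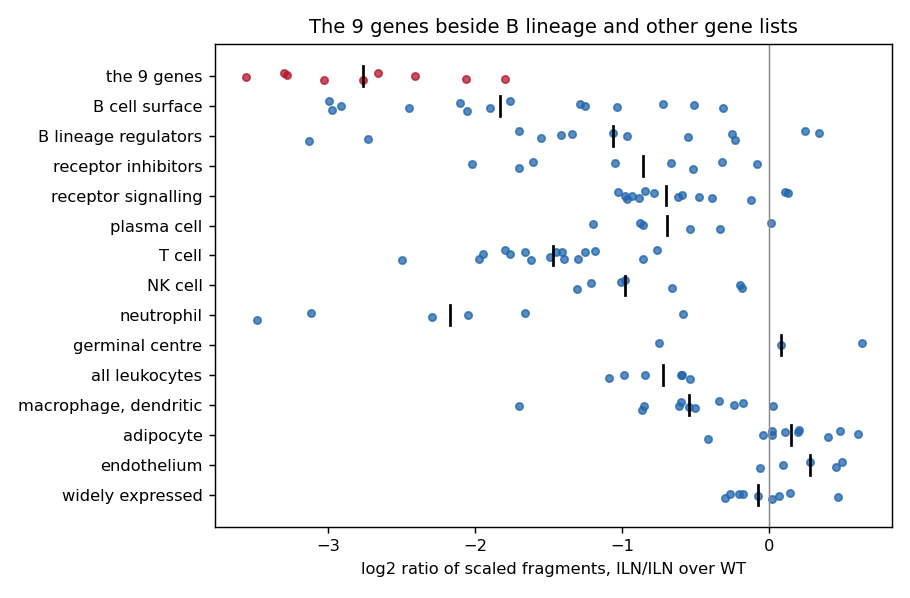
Log2 ratio of scaled fragments, ILN/ILN over WT, of the 9 genes (red) and of measured genes of other lists (blue), each point a gene and each black bar the median of its list, with genes at 0 fragments in a library left out. The median is -2.76 for the 9 genes, -1.83 for B cell surface genes, -1.47 for T cell genes, -2.17 for neutrophil genes, -0.73 for genes of all leukocytes and 0.15 for adipocyte genes.

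Genes of other leukocytes were lower in the same library as well, neutrophil genes by folds that reached those of the members. All 6 measured neutrophil genes were below 0 and 5 were at least 2-fold lower; the list median was -1.60, against -2.22 for the measured members. Their summed value was 66.75 in the ILN/ILN library and 321.5 in the WT library, none was at 0, and their fragments were 5.02-fold lower (4.74 to 5.31). The granule protein gene Ngp was 11.2-fold lower (9.28 to 13.5) and Mpo, myeloperoxidase, 8.66-fold lower (5.45 to 14.5), both past the members' median of 6.78-fold, while Elane, neutrophil elastase, was at 4.05 in the ILN/ILN library and 6.09 in the WT library. All 16 measured T cell genes were below 0 and 12 were at least 2-fold lower, with a summed value of 54.1 over the list in the ILN/ILN library and 142 in the WT library, and none of the 17 listed genes was at 0. The fragments of the T cell list were 2.88-fold lower (2.77 to 3.00). All 6 genes of leukocytes in general were below 0 and 2 were at least 2-fold lower, with summed values of 257 and 453, and their fragments were 1.63-fold lower (1.61 to 1.66). The 2 were Coro1a and Ptprc, which encodes CD45. Ptprc was at 32.0 and 72.8 by the authors' derived estimate in part; by fragments, 1432 and 3051, it was 1.98-fold lower (1.86 to 2.11), and from fragments alone 1 of the 6 was at least 2-fold lower. Of 11 measured macrophage and dendritic cell genes 10 were below 0 and 1 was at least 2-fold lower, with summed values of 1297 and 1984. Of 7 measured NK cell genes none was at least 2-fold lower on the log2(value + 1) scale, with summed values of 37.3 and 50.0. By fragments, Prf1 was 2.32-fold lower (1.79 to 3.03) and Klrb1c 2.01-fold lower, with 69 and 149 fragments. The other measured NK cell genes besides Eomes were less than 2-fold lower by fragments, down to 1.14-fold for Gzma. The 1 NK cell gene above 0, Eomes, was at 1.99 and 0.759 by the derived estimate in part, but had 49 and 130 fragments, 2.47-fold lower (1.77 to 3.50).

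Set against T cells, the B cell genes were lower still. Fragments of the 9 genes amounted to 68.2% of those of the T cell list in the ILN/ILN library and 144% in the WT library, 2.11-fold lower (1.99 to 2.24). Without Cd79a and Cd79b, which hold most of the fragments, the difference was 2.64-fold (2.43 to 2.87). Against the 6 genes of all leukocytes the 9 genes amounted to 11.9% in the ILN/ILN library and 44.1% in the WT library, 3.72-fold lower (3.55 to 3.90). Scaled by those 6 genes instead of by library totals, the 9 genes were 2.12-fold to 7.21-fold lower. Of the 16 measured T cell genes 3 had a fold at least as large as that of Cd79b, the member with the least, and none reached the median of the 9.

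Several genes of the lymph node and its follicles were lower in the ILN/ILN library as well, to unlike extents. All 4 measured genes on the list for high endothelium and node stroma were below 0. Of these, 2 were at least 2-fold lower, Glycam1 and Ltb. The list summed to 21.0 in the ILN/ILN library and 98.4 in the WT library, and Glycam1 alone was at 1.81 and 53.2. By fragments, Glycam1 was 29.4-fold lower, Ltb 3.51-fold, Lta 3.44-fold and Ccl19 1.36-fold. Chst4 had 0 and 44 fragments. The cells that these transcripts came from were not determined, so the list is no measure of node stroma and high endothelium alone. Of 6 measured genes of follicular dendritic cells and follicle stroma 5 were below 0 and 2, Cxcl13 and Vcam1, were at least 2-fold lower. By fragments, Cxcl13 was 38.2-fold lower (27.7 to 54.2), Vcam1 2.44-fold (2.26 to 2.64) and Madcam1 3.02-fold (1.91 to 4.93). Summed values of the list were 225 and 272, and its fragments were 1.17-fold lower (1.14 to 1.19). Most of these fragments were those of Mfge8, 11676 in the ILN/ILN library and 13437 in the WT library, and Enpp2, 8625 and 9146. The sum therefore mostly reflects these 2 genes. Mfge8 was 1.07-fold lower, Bst1 1.19-fold lower with an interval that held 1, and Enpp2 was at 78.2 and 77.2. Luminal epithelium, checked as a defining cell type of the gland, was nearly missing from the ILN/ILN library, with 67 fragments over 8 genes against 3366 in the WT library and none for Krt8, Cldn7 and Elf5. The part of lymph node, neutrophils, epithelium or dissection in the values of the 9 genes was not tested.

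In contrast, adipocyte genes (median 0.15, none of 10 past 2-fold), endothelial genes (0.25, none of 5) and widely expressed genes (-0.07, none of 9) stayed near the median of all genes on the log2(value + 1) scale.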

How the data were processed

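Polyadenylated RNA from 1 ILN/ILN and 1 WT mammary gland sample was sequenced by a protocol that marks strand, on 2 lanes per sample, per the labels' protocols. Tools listed without role or order in the submitters' processing notes are bedtools, TopHat 1.4.1 and Bowtie 0.12.3, with mm9 as the build. The program behind the gene tables and its use of strand are not given in these sources.

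Per the file headers, the authors deposited an FPKM-like value per gene, its log2(value + 1), signal per kilobase in 3 columns (final, original and derived), and the gene length and isoform numbers. Multiplied by length, the deposited original signal gave whole numbers (tolerance 0.01) for 100% of genes above 0, called fragments here. Fragments summed to 42953129 (ILN/ILN) and 46133338 (WT), where a count of 0 allows 3 fragments, or 0.0698 and 0.0650 per 1000000.

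Ratios of fragments scaled by these totals carry exact conditional (Clopper-Pearson) 95% intervals, and ratios between 2 genes conditional odds ratio intervals (SciPy 1.17.1), while ratios between summed lists use a normal interval on the log scale. All cover counting error only, since each genotype has 1 library. They treat fragments as independent molecules, which fragments are not, so they may be too narrow even for counting error. Log2 ratios use deposited values with a pseudocount of 1, which understates low genes, over genes that reached a value of 1 in either library. The intervals of single genes were tested on simulated counts drawn independently, as the intervals assume. That simulation therefore cannot show how well they hold for fragments that are not independent. Members and lists were chosen with earlier results of these data known, and the limits of 200 fragments and 5-fold after the values were seen. Some single genes of the lists are not reported here and were left out of the list counts. Genes were named as members, as genes of the lists, or as the 10 nearest to the members' median ratio among genes with a WT value of at least 5. Pseudocount, scaling, minimum and fold threshold were varied. Sequences are from RefSeq (GRCm38.p6) and GENCODE M21 (GRCm38), which differ from mm9, so no coordinates are joined to the files.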

Additional observations from a re-analysis of the deposited data

How the results depend on the processing

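All 9 members stayed lower in the ILN/ILN library under every alternative run. With the authors' library constants, the median ratio of genes or deposited values without a pseudocount, the members were 3.47-fold to 11.8-fold lower. Scaled by the leukocyte genes, the ratios of ILN/ILN over WT were 0.139 for Pax5, 0.166 for Faim3, 0.168 for Fcer2a, 0.200 for Cd79a, 0.241 for Cd22, 0.259 for Cr2, 0.308 for Blk, 0.391 for Ms4a1 and 0.471 for Cd79b, since those genes were lower themselves. The 8 members past 2-fold became 5 with a pseudocount of 5 and 5 at a 4-fold threshold. Their median of -2.22 was -2.85 with a pseudocount of 0.1, -1.41 with one of 5 and -2.40 when the minimum was 5. Over all genes, 199 were lower and 47 higher past 2-fold, against 376 and 100 with a pseudocount of 0.1, 50 and 9 with one of 5, and 115 and 26 when the minimum was 5, where fewer genes enter. Fragments of the 9 genes relative to the T cell list, 0.474 of the WT share, were 0.425 by the median of single ratios, 0.533 without Cd79a and 0.379 without Cd79a and Cd79b, an alternative chosen after seeing the data. Relative to leukocytes in general these were 0.269, 0.241, 0.302 and 0.215. No paired analysis was possible because each genotype has 1 library. Depth limits Pax5 and Cr2 most, with 26 and 32 fragments in the ILN/ILN library.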
